A study of Homo sapiens with 9 samples.

Results

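A group of 9 genes of regulated secretion were read here across both knockdowns: the synaptic vesicle glycoproteins SV2A and SV2B, the syntaxin-binding protein STXBP6, the membrane-fusion proteins SNAP25, SNAP23 and VAMP2, the synaptotagmins SYT1 and SYT11, and REST, a repressor of neuronal genes. All 9 genes, of 18132 with a symbol on the arrays, were found, through every probe set whose only gene symbol was a listed one (28 of 49293 non-control probe sets). The group was chosen by function and by measured values: earlier results of these arrays had shown SV2B higher in si-BAP1 cells and STXBP6 higher in si-MBD5 cells. The intensities of the 9 genes are therefore given as a description, with no p-value.

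The cells were HCCC-9810, a human line derived from an intrahepatic bile duct cancer. Total RNA was measured on 9 Affymetrix arrays, with 3 replicates in each of 3 groups: siRNAs against BAP1 (si-BAP1), siRNAs against MBD5 (si-MBD5), and a control that the sample titles call si-Control and the treatment labels call control shRNA. The labels give no time after transfection and do not say whether replicates were separate cultures. A p-value here reflects only how far these arrays of 1 line spread, which may be technical. Array medians lay between 36.9 and 38.2, and arrays of 1 group correlated at 0.998 to 0.999. MBD5, a methyl-CpG-binding domain protein, was dim: on its brighter probe set, at the 11.9th percentile, the 3 si-MBD5 arrays read 6.20, 6.20 and 6.11 and the 3 control arrays 7.16, 7.06 and 6.90, with no overlap. Its other probe set, at the 0.830th percentile, overlapped between groups. BAP1 itself, a nuclear deubiquitinase, was not analysed here, so the si-BAP1 labels were not checked against their target. Of 7 biliary markers on the arrays 4 were above the filter on dim signals (a mean intensity over 25.5, the 40th percentile), among them KRT7, KRT8 and KRT18, while KRT19 (20.6 in control), EPCAM (7.90) and SPP1 (19.1) were under it.

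Regulated exocytosis joins a vesicle to the plasma membrane when a vesicle SNARE such as VAMP2 zips together with a syntaxin and a SNAP protein on the target membrane. Synaptotagmins sense calcium, SV2 proteins sit in the vesicle membrane and help to prepare vesicles for release, and STXBP6 (amisyn) binds syntaxin through a SNARE-like domain without anchoring a vesicle. REST binds a DNA element called RE1 and recruits corepressors, keeping many genes of this neuronal machinery silent outside the nervous system. Epithelial cells secrete with related proteins, of which SNAP23 is the widely expressed counterpart of the neuronal SNAP25.

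In brief, SV2B and STXBP6 were the members with the largest differences. On their brightest probe sets SV2B was 2.22-fold and STXBP6 1.67-fold the control intensity in si-BAP1 cells, and 1.23-fold and 1.60-fold in si-MBD5 cells. The SV2B difference rests on 1 of its 2 probe sets, and 2 of the 4 STXBP6 probe sets overlapped control in si-MBD5 cells. SNAP25 was lower in si-BAP1 cells on 1 of its 4 probe sets (0.78-fold). SNAP23, VAMP2 and the brightest REST probe set had overlapping arrays in all 3 groups, and SV2A, SYT1 and SYT11 were under the filter, with their brightest probe sets at the 35.2th, 25.7th and 18.8th percentile. Intensities are on a linear scale, and group values are mean ± SD over n = 3 arrays. A log2 difference is that of group means of log2(intensity + 16), with its standard error (SE) from limma fitted over all probe sets, so it is smaller than the ratio of intensities.

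**Figure D1:**
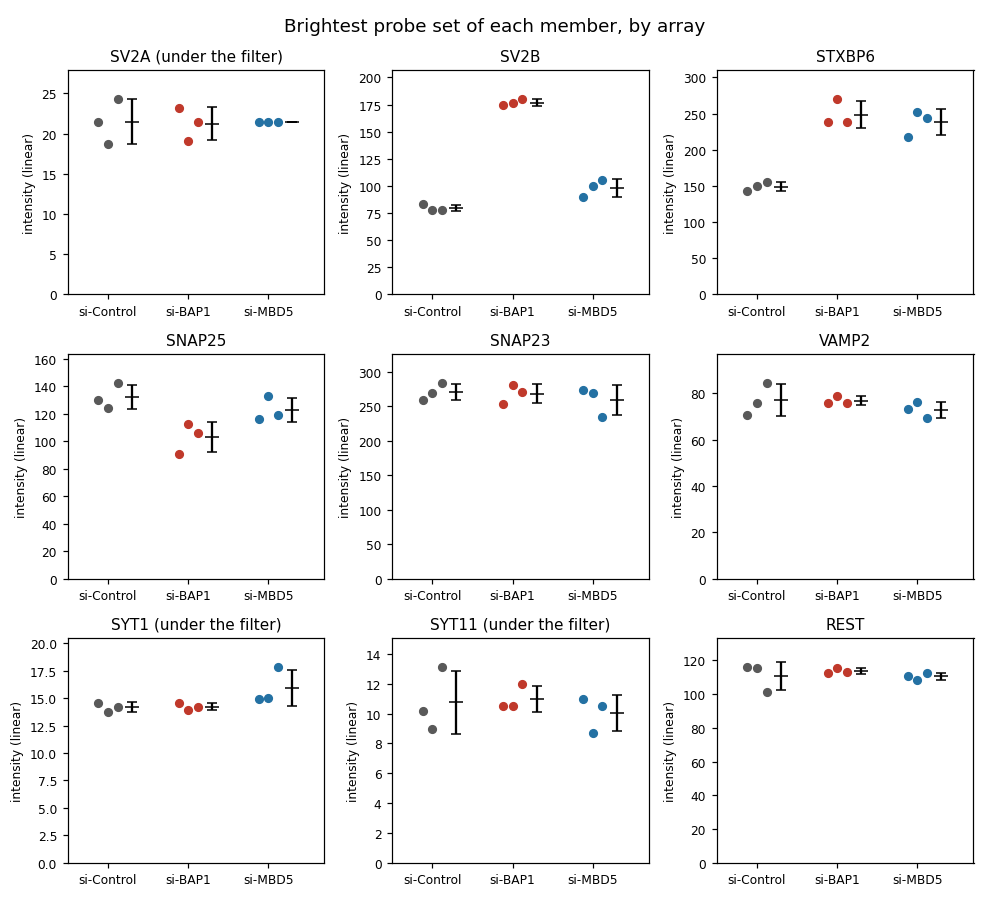
Intensity (linear scale, from 0) of the brightest probe set of each of the 9 genes on every array, in si-Control (grey), si-BAP1 (red) and si-MBD5 (blue) cells, with the mean ± SD of each group of 3 arrays beside the points. SV2B stands at 174.1 to 180.0 in si-BAP1 cells against 77.7 to 83.1 in control, and STXBP6 is above control in both knockdowns; the panels of SV2A, SYT1 and SYT11 are marked as under the filter.

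SV2B, a vesicle membrane glycoprotein of neurons and endocrine cells, read 83.1, 77.7 and 77.9 on the 3 control arrays, 174.1, 176.4 and 180.0 on the si-BAP1 arrays, and 89.4, 100 and 105.1 on the si-MBD5 arrays. The 3 groups did not overlap, in the order control, si-MBD5, si-BAP1. The group values were 79.6 ± 3.1, 98.2 ± 8.0 and 177 ± 3.0 in that order. The log2 difference from control was 1.01 (SE 0.054) in si-BAP1 cells and 0.25 (SE 0.054) in si-MBD5 cells, and si-BAP1 exceeded si-MBD5 by 0.76 (SE 0.054). These values came from 11743495_s_at, of a type whose probes match more than 1 transcript. Whether transcripts of another gene add to its signal was not tested. The other SV2B probe set, 11746334_a_at, stood at the 21.9th percentile and read 11.2 ± 2.2, 12.6 ± 0.39 and 13.6 ± 2.0 in control, si-BAP1 and si-MBD5 cells, with overlapping arrays (log2 difference 0.078, SE 0.058, for si-BAP1). The SV2B difference therefore rests on 1 probe set, and the dimmer one read si-BAP1 below si-MBD5 (log2 difference -0.048).

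RefSeq (GRCh38.p14) lists 4 start sites of SV2B on chromosome 15, and 300 bases around each were searched, 250 before and 50 after the start. The window richest in CpG (35 CpG, 69.3% G or C) is shown because SV2B had the largest difference among the members. It lies at chr15:91100007-91100306 on the plus strand, and capitals mark the GC box GGGCGG on either strand.
SV2B promoter: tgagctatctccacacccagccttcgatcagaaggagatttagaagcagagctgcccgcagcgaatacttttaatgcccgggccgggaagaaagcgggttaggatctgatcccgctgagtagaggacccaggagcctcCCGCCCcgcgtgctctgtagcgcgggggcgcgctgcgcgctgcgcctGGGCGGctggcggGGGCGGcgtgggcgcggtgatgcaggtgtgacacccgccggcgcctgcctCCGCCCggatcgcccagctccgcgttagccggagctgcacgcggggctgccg
It holds 4 GC boxes, beginning 112, 65, 52 and 2 bases before the start. A GC box was present in 45% of all 35116 promoter windows, searched on both strands, so its presence does not set this window apart.

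STXBP6, which holds syntaxin away from vesicle SNAREs, read 142.5, 149.9 and 155.0 on the control arrays, 238.4, 270.1 and 237.8 on the si-BAP1 arrays, and 217.9, 252.6 and 243.7 on the si-MBD5 arrays. All 6 knockdown arrays lay above the 3 control arrays, and the knockdowns overlapped each other. The group values were 149 ± 6.3, 249 ± 18 and 238 ± 18. The log2 difference from control was 0.68 (SE 0.061) in si-BAP1 and 0.62 (SE 0.061) in si-MBD5 cells, and the knockdowns differed by 0.060 (SE 0.061), with an error as large as the difference.

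The 4 probe sets of STXBP6 were all higher in si-BAP1 cells, with no overlap with control: after the brightest came log2 differences of 0.48 (11747725_a_at, SE 0.062), 0.28 (11747726_s_at, SE 0.068) and 0.38 (11758922_at, SE 0.071). In si-MBD5 cells the 2 bright probe sets were separated from control (0.62 and 0.43), while the 2 dim ones overlapped it (0.052 and 0.098). On those dim probe sets si-BAP1 lay above si-MBD5 without overlap, with log2 differences of 0.23 and 0.28. The probe sets thus agreed that STXBP6 was higher in si-BAP1 cells and were divided on si-MBD5 cells. Averaged over the probe sets above the filter, the log2 difference was 0.48 in si-BAP1 and 0.37 in si-MBD5 cells. This average includes 11747726_s_at, which read 24.7 in control, under the filter intensity of 25.5. It read 33.6 in si-BAP1 and 26.2 in si-MBD5 cells.

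The promoter window of STXBP6 richest in CpG, of 3 listed start sites on chromosome 14, is shown for comparison with that of SV2B, the other member higher in both knockdowns. It lies at chr14:25050098-25050397 on the minus strand, with 35 CpG and 75.3% G or C, and capitals mark GGGCGG and CCAAT on either strand.
STXBP6 promoter: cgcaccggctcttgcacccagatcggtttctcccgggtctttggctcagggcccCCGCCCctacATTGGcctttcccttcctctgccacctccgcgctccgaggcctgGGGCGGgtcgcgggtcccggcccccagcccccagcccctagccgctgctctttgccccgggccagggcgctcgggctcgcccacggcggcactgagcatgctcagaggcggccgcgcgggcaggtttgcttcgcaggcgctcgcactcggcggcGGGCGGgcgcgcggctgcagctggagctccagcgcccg
The window holds 3 GC boxes, beginning 196 and 142 bases before and 13 bases after the start, and 1 CCAAT box 186 bases before it. Over all windows, 34.6% held a CCAAT box. The printed windows were picked for their CpG count; the other windows of these genes held fewer CpG (11, 6 and 5 for SV2B, 11 and 3 for STXBP6), below the median of 14.0 over all windows.

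**Figure D2:**
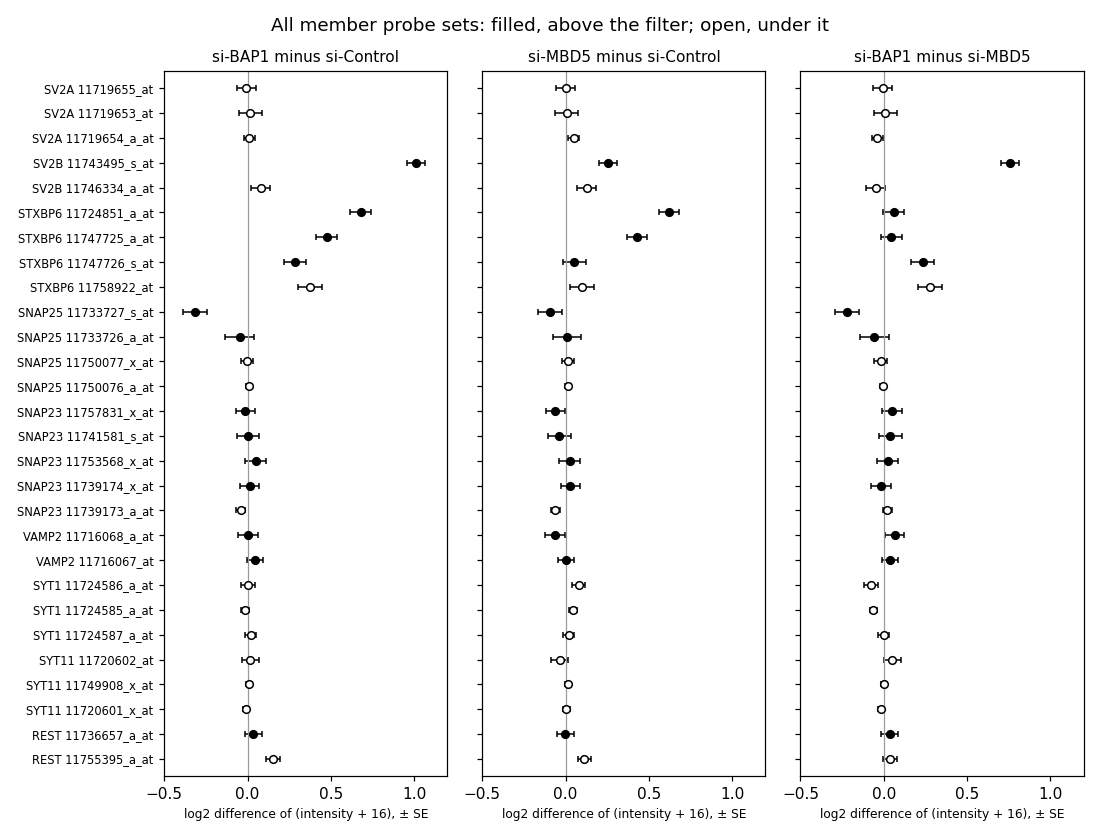
Log2 difference of (intensity + 16) with its SE for each of the 28 probe sets of the 9 genes, in the 3 comparisons. Filled points are probe sets above the filter and open points those under it. SV2B 11743495_s_at, the STXBP6 probe sets and SNAP25 11733727_s_at stand apart from 0 in si-BAP1 cells. So does REST 11755395_a_at, under the filter, by less (0.15, SE 0.042).

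SNAP25, the neuronal SNAP protein of the plasma membrane, read 130.0, 124.6 and 142.3 on the control arrays, 90.9, 112.6 and 106.0 on the si-BAP1 arrays, and 116.1, 132.8 and 119.5 on the si-MBD5 arrays of its brightest probe set, 11733727_s_at. The si-BAP1 arrays lay below both other groups, and si-MBD5 overlapped control. The log2 difference from control was -0.32 (SE 0.072) in si-BAP1 and -0.096 (SE 0.072) in si-MBD5 cells. Its next probe set, 11733726_a_at, did not show this: it read 86.9 ± 5.0 in control, 83.6 ± 6.4 in si-BAP1 and 88.0 ± 14 in si-MBD5 cells, with overlap (log2 difference -0.048 for si-BAP1). The mean of both gave -0.18. The brightest is an _s_at probe set, like that of SV2B. Without _x_at and _s_at probe sets the SNAP25 difference in si-BAP1 cells was -0.048. The 2 further probe sets, at the 31.3rd and 4.18th percentile, overlapped in every comparison.

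SNAP23, its widely expressed counterpart, read 259.5, 269.7 and 283.7 in control, 254.2, 280.7 and 270.7 in si-BAP1 and 273.9, 269.9 and 234.3 in si-MBD5 cells on its brightest probe set. The groups overlapped on all 5 SNAP23 probe sets, whose log2 differences from control ran from -0.041 to 0.048 in si-BAP1 cells and from -0.062 to 0.028 in si-MBD5 cells. VAMP2, the vesicle SNARE, read 70.7, 75.8 and 84.4 in control, 75.8, 79.1 and 75.8 in si-BAP1 and 73.1, 76.2 and 69.3 in si-MBD5 cells. Its arrays overlapped on both probe sets, with log2 differences of 0.0015 and 0.043 in si-BAP1 cells and -0.064 and 0.0045 in si-MBD5 cells. The SE of these differences was 0.047 to 0.068 on the SNAP23 and VAMP2 probe sets above the filter, so small shifts could not be seen.

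SV2A, the broadly expressed relative of SV2B and the binding site of the drug levetiracetam, was under the filter on all 3 probe sets. Its brightest read 21.4, 18.7 and 24.3 in control, 23.2, 19.1 and 21.4 in si-BAP1, and 21.4 on each si-MBD5 array. No SV2A probe set separated any pair of groups (log2 differences -0.0064 to 0.016 in si-BAP1 and -0.00030 to 0.049 in si-MBD5 cells). The higher SV2B intensity was therefore not accompanied by a measurable SV2A difference, at a signal where the arrays measure little.

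SYT1, the calcium sensor of fast release, was also under the filter on all 3 probe sets. The brightest read 14.6, 13.7 and 14.2 in control, 14.6, 13.9 and 14.2 in si-BAP1 and 14.9, 15 and 17.8 in si-MBD5 cells. On this and on 1 further SYT1 probe set the si-MBD5 arrays lay above both other groups, by log2 0.079 (SE 0.040) and 0.046 (SE 0.023) against control. SYT11, a synaptotagmin that does not bind calcium, read 10.2, 8.99 and 13.1 in control, 10.5, 10.5 and 12 in si-BAP1 and 11, 8.69 and 10.5 in si-MBD5 cells, and overlapped on all 3 probe sets. Its 2 other probe sets stood at the 3.13th and 3.37th percentile.

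REST read 115.9, 115.7 and 101.1 in control, 112.5, 115.8 and 113.2 in si-BAP1 and 110.9, 108.3 and 112.5 in si-MBD5 cells on its brightest probe set. The groups overlapped, with log2 differences from control of 0.035 (SE 0.052) and -0.0021 (SE 0.052). The dimmer REST probe set, at the 34.9th percentile, read 19.3, 18.5 and 18.9 in control, 23.4, 21.4 and 23.6 in si-BAP1 and 21.5, 21.2 and 22.5 in si-MBD5 cells. All 6 knockdown arrays lay above control there (log2 differences 0.15 and 0.11, SE 0.042). The probe sets thus gave different pictures, the brighter one with no separation.

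Because REST acts through RE1, the promoter windows of the members were searched on both strands for letters of that element. Neither the longer left part TTCAGCACC (0.376% of all windows) nor the longer right part GGACAGCGC (0.581%) was found in the 15 windows of the 8 members with an entry; SNAP25 had none. Their shorter cores CAGCACC (7.75% of all windows; contained in the left part) and GGACAGC (6.03%; contained in the right part) were found in 3 windows, shown with 12 bases on each side and the core in capitals.
SV2B (opposite strand, 40 bases before the start): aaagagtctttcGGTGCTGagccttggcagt
SNAP23 (86 bases before the start): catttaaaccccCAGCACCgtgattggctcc
REST (170 bases before the start): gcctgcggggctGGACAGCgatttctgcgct
The SV2B core belongs to the window at chr15:91099338-91099637, not to the one printed above, that of SNAP23 to chr15:42495384-42495683 and that of REST to chr4:56908660-56908959, all on the plus strand. A match of 7 letters is a description of the sequence and no measured binding.

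Counted over probe sets, 6 of 28 lay wholly above and 1 wholly below control in si-BAP1 cells, where 25.1% of all probe sets did not overlap (14.4% above and 10.7% below). In si-MBD5 cells 6 lay above and 0 below, where 19.9% did not overlap (10.1% above and 9.74% below). Between the knockdowns 3 were higher and 3 lower in si-BAP1, against 16.6% of all probe sets not overlapping (9.89% higher and 6.67% lower). Over genes, 6 of the 9 members passed the filter and 3 did not. Since the members were chosen with these values known, nothing is read from their counts. Both comparisons with control use the same 3 control arrays.

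The genes whose intensity over the 9 arrays was nearest to that of SV2B, by the root mean square difference of log2 values centred on control, were the histone genes H2BC11 (0.106 log2) and H2BC5 (0.143), the transporter ABCA13 (0.147), the insulin-like peptide INSL4 (0.150) and the mRNA decapping enzyme DCP2 (0.159). All 5 had a larger log2 difference in si-BAP1 (0.81 to 0.96) than in si-MBD5 cells (0.23 to 0.40), the order seen for SV2B. Nearest to STXBP6 were the kinetochore protein ZW10 (0.0587), the fatty acid transporter SLC27A6 (0.0768), the lipoprotein receptor OLR1 (0.0798), the transcription factor TCF3 (0.0889) and the palmitoyltransferase ZDHHC16 (0.0971). Their log2 differences were 0.61 to 0.74 in si-BAP1 and 0.53 to 0.69 in si-MBD5 cells. These genes were picked for their likeness, so the order shared with SV2B follows from that choice, and no test was made. ABCA13 and SLC27A6 read under the filter intensity of 25.5 in control (19.0 and 16.3). They were above it in si-BAP1 (52.3 and 36.2) and si-MBD5 cells (27.4 and 30.7).

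**Figure D3:**
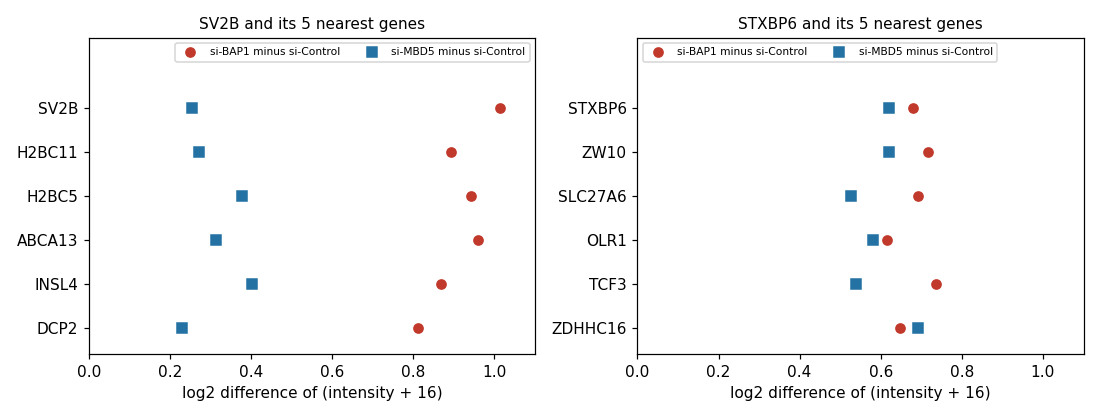
Log2 difference of (intensity + 16) from control in si-BAP1 (red circles) and si-MBD5 cells (blue squares) for SV2B and STXBP6 and the 5 genes nearest to each. The genes near SV2B have si-BAP1 at 0.81 to 0.96 and si-MBD5 at 0.23 to 0.40, while those near STXBP6 have both between 0.53 and 0.74.

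The wider machinery was read from 7 lists of exocytosis and REST genes without the members (141 genes, 136 with a probe set, 92 above the filter). In si-BAP1 cells 8 rose and 14 fell of the 92 (23.9%, beside 23.5% of all genes; median log2 -0.031, beside 0.00050 over all genes). In si-MBD5 cells 6 rose and 11 fell (18.5%, beside 16.3%; median 0.0010, beside 0.00010). Between the knockdowns 4 were higher and 5 lower in si-BAP1 cells (9.78%, beside 9.97%). That split was 2 higher and 8 lower after quantile normalization, 5 and 3 with probe sets averaged, and 1 and 6 without si-BAP1 replicate 2. Of all 12434 genes, 1536 were higher (12.4%) and 1382 lower (11.1%) in si-BAP1 cells, 907 (7.29%) and 1118 (8.99%) in si-MBD5 cells, and 716 (5.76%) and 524 (4.21%) in si-BAP1 against si-MBD5 cells. Quantile normalization turned the majority in each comparison, to 1516 higher and 1567 lower, 1109 and 1056, and 603 and 711. As a whole, the lists were thus called about as often as other genes. The p-values below are from limma, adjusted over all 12434 genes, or over the genes of an alternative where 1 is named. Calls on a gene's other probe sets came from the fit over all 49293 non-control probe sets and were adjusted over those. The brightest and the other probe sets were therefore not judged at the same threshold.

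**Figure D4:**
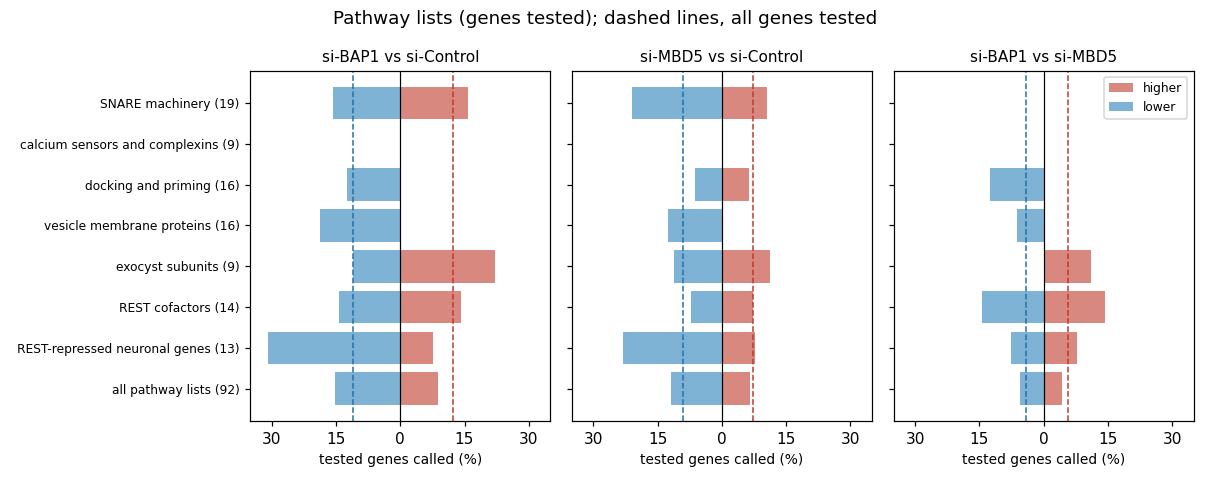
Percent of the tested genes of each list past a limma adjusted p of 0.05, higher (red, right) and lower (blue, left), in the 3 comparisons, with the number tested after each name. Dashed lines give the same percent over all 12434 genes; all lists together (92 genes) lie near them.

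Among SNAREs and their partners, 3 of 19 rose and 3 fell in si-BAP1 cells, and 2 rose and 4 fell in si-MBD5 cells. The share was 31.6% in each, beside 23.5% and 16.3% of all genes. The syntaxin STX2 rose from 258 ± 14 to 346 ± 2.3 in si-BAP1 (log2 0.40, SE 0.045, adjusted p = 2.58e-05) and to 345 ± 13 in si-MBD5 cells (adjusted p = 6.95e-05). STX4, the syntaxin that pairs with SNAP23 at the plasma membrane, fell from 174.5 ± 12 to 142 ± 4.8 (log2 -0.27, adjusted p = 0.00149) and to 145 ± 4.0 (log2 -0.24, adjusted p = 0.00529). STX3, the apical syntaxin, fell in si-BAP1 cells (log2 -0.19, adjusted p = 0.00349) and its 2 other probe sets, at -0.055 and 0.013, did not pass. VAMP8, an epithelial vesicle SNARE, fell in si-MBD5 cells (log2 -0.21, adjusted p = 0.00363). NSF, the ATPase that takes spent SNARE complexes apart, was higher on its brightest probe set (log2 0.21 and 0.29, adjusted p = 7.48e-04 and 1.79e-04), and not with its probe sets averaged or with _s_at ones left out (adjusted p up to 0.597 and 0.688). STXBP4 and VAMP8 completed the calls in si-BAP1 cells, and STX3 and VAMP3 those in si-MBD5 cells. Between the knockdowns 0 of 19 passed in limma (2 at an unadjusted p under 0.05), beside 9.97% of all genes.

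Docking and priming factors had 0 higher and 2 lower of 16 in si-BAP1 cells (12.5%, beside 23.5% of all genes). The largest change of all lists was in UNC13A, the neuronal Munc13 that primes vesicles, which fell from 93.6 ± 2.9 to 53.7 ± 1.0 (log2 -0.65, SE 0.046, adjusted p = 5.58e-07). In si-MBD5 cells it fell to 65.7 ± 2.9 (log2 -0.42, adjusted p = 4.79e-05), and si-BAP1 lay below si-MBD5 (log2 -0.23, adjusted p = 0.00694). UNC13A has 1 probe set above the filter, and its calls held in all 17 alternatives. RAB27A, a GTPase of secretory granules, fell in si-BAP1 cells (279 ± 0.44 to 246 ± 5.6, adjusted p = 0.00397), though averaging its probe sets gave an adjusted p of 0.0918 in limma. UNC13B, the widely expressed Munc13, rose in si-MBD5 cells (154 ± 3.3 to 176 ± 3.9, adjusted p = 0.0135), which did not pass once si-Control replicate 2 was left out (adjusted p = 0.0681), and was lower in si-BAP1 than in si-MBD5 cells (adjusted p = 0.0300), which 7 of 17 alternatives did not call.

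Vesicle membrane proteins had 0 higher and 3 lower of 16 in si-BAP1 and 0 higher and 2 lower in si-MBD5 cells. These shares, 18.8% and 12.5%, were below the 23.5% and 16.3% of all genes. The carrier membrane protein SCAMP1 fell from 410 ± 12 to 305 ± 8.5 (log2 -0.41, adjusted p = 7.35e-06) and to 335 ± 6.1 (log2 -0.28, adjusted p = 4.05e-04). SCAMP3 fell by less (log2 -0.17 and -0.22, adjusted p = 0.00446 and 0.00148). SYNGR3, a synaptogyrin, fell in si-BAP1 cells (log2 -0.24, adjusted p = 0.0132; 0.0628 without si-BAP1 replicate 1) and read 92.2 ± 6.1 in si-MBD5 cells beside 92.0 ± 2.2 in control. SV2C, the remaining SV2 protein, had no probe set above the filter. Calcium sensors and complexins had 0 of 9 past the limma threshold in each comparison, beside 23.5%, 16.3% and 9.97% of all genes. At an unadjusted p under 0.05 in limma there were 3, 1 and 0. Of their 26 genes 17 were not tested.

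Of the 9 subunits of the exocyst, the complex that tethers vesicles at the plasma membrane, 2 rose and 1 fell in si-BAP1 cells and 1 rose and 1 fell in si-MBD5 cells. That was 33.3% and 22.2%, beside 23.5% and 16.3% of all genes. EXOC4 rose from 250 ± 3.4 to 326 ± 3.6 (log2 0.36, adjusted p = 3.91e-05) and to 292 ± 16 (log2 0.21, adjusted p = 0.00457), on a single probe set. EXOC1 fell from 376 ± 9.4 to 311.5 ± 14 (log2 -0.26, adjusted p = 4.15e-04) and to 332 ± 1.8 (log2 -0.17, adjusted p = 0.0126; 0.107 at the highest over the alternatives). EXOC2 rose in si-BAP1 cells (log2 0.18, adjusted p = 0.0166), and did not pass when si-BAP1 replicate 2 or 3 or si-Control replicate 1 was left out (adjusted p up to 0.0750).

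Of 14 REST cofactors tested, 2 rose and 2 fell in si-BAP1 cells and 1 rose and 1 fell in si-MBD5 cells. That was 28.6% and 14.3%, beside 23.5% and 16.3% of all genes. HDAC1, a histone deacetylase of the REST corepressor complexes, rose from 689 ± 12 to 945 ± 13 (log2 0.45, SE 0.032, adjusted p = 5.55e-07) and to 857.5 ± 2.0 (log2 0.31, adjusted p = 2.95e-05). Its other probe set carried the call in si-BAP1 (log2 0.38) and not in si-MBD5 cells (log2 0.14). HMG20B, another corepressor subunit, rose in si-BAP1 cells (502 ± 33 to 604 ± 15, adjusted p = 9.97e-04). RCOR1, the CoREST scaffold, fell in si-MBD5 cells (402.5 ± 31 to 336.5 ± 6.1, adjusted p = 0.00518), and its other probe set did not pass (log2 -0.11). CTDSP2, a phosphatase found with REST, fell in si-BAP1 cells on its brightest probe set (663 ± 6.4 to 556 ± 16, adjusted p = 3.58e-04) and not on its 5 others (log2 -0.12 to 0.094). PHF21A fell in si-BAP1 cells by log2 0.15 (limma adjusted p = 0.0217), a call lost in 6 of 17 alternatives. Between the knockdowns HDAC1 and RCOR1 were higher and CTDSP2 and PHF21A lower in si-BAP1 cells (28.6%, beside 9.97% of all genes). Of 17 alternatives, 9 did not call RCOR1 there, 2 did not call CTDSP2, 2 did not call PHF21A and 1 did not call HDAC1.

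Of 13 tested genes on a list of neuronal genes held to be repressed by REST, 1 rose and 4 fell in si-BAP1 cells, beside 12.4% higher and 11.1% lower of all genes. In si-MBD5 cells 1 rose and 3 fell, beside 7.29% and 8.99%. The rise in si-BAP1 cells was in TUBB3, a neuronal tubulin (250.1 ± 12 to 321 ± 4.0, log2 0.34, adjusted p = 1.20e-04), which read 255 ± 12 in si-MBD5 cells and differed between the knockdowns (adjusted p = 7.19e-04), on an _x_at probe set only. UNC13A, described above, was among the falls. GAD1, the enzyme that makes GABA, fell from 44.9 ± 1.6 to 34.6 ± 1.2 (adjusted p = 9.65e-04) and to 36.3 ± 1.3 (adjusted p = 0.00654), while its other probe set passed in si-MBD5 and not in si-BAP1 cells (log2 -0.37 and -0.22). The neurotrophin BDNF fell from 529 ± 14 to 463 ± 9.9 (adjusted p = 0.00298) and to 441 ± 13 (adjusted p = 6.31e-04); its 4 other probe sets all passed in si-MBD5 cells and none did in si-BAP1 cells (log2 -0.16 to -0.078). VGF, a granule peptide precursor, was the remaining fall in si-BAP1 cells (adjusted p = 0.00468), and L1CAM, an adhesion molecule, the rise in si-MBD5 cells (adjusted p = 0.0306, and up to 0.104 over the alternatives). 

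Markers of neurons and neuroendocrine cells were read beside these genes. Of 14 markers 11 were on the arrays and 7 above the filter, with summed intensities of 429.5 to 468.6 in control, 402.2 to 457.3 in si-BAP1 and 415.0 to 455.3 in si-MBD5 cells, which overlap. In si-BAP1 cells 0 of the 7 passed in limma (2 at an unadjusted p under 0.05), beside 23.5% of all genes. In si-MBD5 cells ENO2, a neuronal enolase, fell (log2 -0.25, limma adjusted p = 0.0292), which is 14.3% beside 16.3% of all genes. INSM1 (11.1 in control), ELAVL4 (7.16), DCX (16.4) and CHGA (17.0) were under the filter. The 7 above it were ENO2 (85.4 in control), ELAVL3 (45.0), NCAM1 (43.7), MAP2 (43.6), RBFOX3 (34.5), UCHL1 (29.0) and SYP. SYP, a vesicle protein used as a neuroendocrine stain, read 112 in control, 110 in si-BAP1 and 123 in si-MBD5 cells and did not pass. None of the 7 passed the limma threshold as higher in either knockdown, beside 12.4% and 7.29% of all genes. For 7 genes that count lies near those shares, and nothing is read from it. Summed markers of fibroblasts and endothelial cells (6 of 6 on the arrays, 4 above the filter) did not overlap with control. They read 199.9 to 205.4 in control, 206.0 to 227.2 in si-BAP1 and 209.0 to 233.1 in si-MBD5 cells. Of the 4 tested only PDGFRB, a growth factor receptor of mesenchymal cells, passed (25.0% in each knockdown, beside 23.5% and 16.3% of all genes). It rose from 53.9 in control to 62.1 and 66.8 (limma adjusted p = 0.0406 and 0.00629). In si-BAP1 cells DCN, under the filter, also read higher (16.9 to 24.7). COL1A1 hardly moved there (29.4 to 29.9), while PECAM1 (39.3 to 38.3), VWF (43.9 to 42.3) and COL1A2 (19.3 to 18.2) read lower. Of the biliary keratins, KRT7 fell in si-BAP1 and si-MBD5 cells (log2 -0.15 and -0.19, limma adjusted p = 0.0236 and 0.0113). KRT8 rose in si-BAP1 cells (log2 0.31, limma adjusted p = 2.28e-04), on an _x_at probe set. Their part in the results above was not tested.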

How the data were processed

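The authors deposited a linear intensity for every probe set of every array. The tool MAS5 is named, per the submitters' processing notes, and how arrays were scaled to each other is not stated there. Since exactly equal values recur on several arrays (in 57.8% of probe sets on at least 2), whether MAS5 alone made these numbers is not settled, and an intensity here means the deposited number. Probe sets were named from the platform annotation (44988 with 1 symbol, 1832 with several and 2473 with none were the non-control ones), with symbols updated through RefSeq gene identifiers (44961 matched). For tests, 16 was added and log2 taken, the brightest probe set of each gene above the 40th percentile was kept (12434 of 18132 genes), and 3 group means were fitted over 9 arrays in limma 3.58.1 (R 4.3.3, empirical Bayes with an intensity trend), with Benjamini-Hochberg adjustment. Member probe sets, and the other probe sets of named genes, were fitted with all 49293 non-control probe sets and no filter.

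Members and lists were chosen with earlier results of these data known. Genes named from a list were up to 4 with the smallest adjusted p in a comparison. STXBP4, VAMP3, VGF, ENO2, PDGFRB, KRT7, KRT8 and repeats of VAMP8 and STX3 were named after their values were seen. Those calls were not read under the alternatives or on other probe sets. Data for si-BAP1 against control were simulated with 12434 genes, 50 changed of each size. Of genes changed by 0.1, 0.25 and 0.5 log2, 6%, 64% and 98% were called, with 10 false calls. In the real data 2918 genes were called for this comparison. The unadjusted p that passes thus differs, and these shares need not hold there. Promoter windows are RefSeq's (GRCh38.p14). Figures used matplotlib 3.10.9 in Python 3.11.15. The alternatives were other added constants (1 and 64), quantile normalization, dropping the filter or raising it to the 60th percentile, averaging a gene's probe sets, dropping _x_at and _s_at ones, a block for the replicate number, and each array left out.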

Additional observations from a re-analysis of the deposited data

How the results depend on the processing

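No alternative turned the direction of SV2B or STXBP6 against control, but the filters, the replicate block and leaving out arrays of the group not compared could not move these values, nor could averaging probe sets for SV2B. For SV2B in si-BAP1 cells the difference was 1.14 with an added constant of 1, 0.75 with 64 and 0.078 without _x_at and _s_at probe sets, which leaves its dim probe set; for si-MBD5 cells it was 0.17 with 64 and 0.13 without those probe sets. That setting also turned SV2B between the knockdowns to -0.048. For STXBP6 the constant of 64 gave 0.55 and 0.50, and the mean of probe sets 0.48 and 0.37, in si-BAP1 and si-MBD5 cells. Leaving out each array gave 0.9992 to 1.04 and 0.21 to 0.31 for SV2B, and 0.62 to 0.71 and 0.58 to 0.68 for STXBP6.

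Pathway genes called numbered 19 to 25 in si-BAP1 and 12 to 19 in si-MBD5 cells when each array was left out, and 4 to 10 between the knockdowns, where it was 5 without si-BAP1 replicate 3, 4 without si-MBD5 replicate 1 and 5 without _x_at and _s_at probe sets, against 9. With the replicate number as block the counts were 22, 16 and 7. Arrays of the same number deviated together by correlations of -0.433 to 0.480 and did not all correlate best with their own number, so the numbers do not show a pairing. Signal limits SV2A, SYT1 and SYT11. The equal values recurring between arrays leave the making of the intensities unsettled. On the simulated data 6% of shifts of 0.1 log2 were called. How often small shifts were missed in the real data was not measured. Some under 0.25 log2 passed, such as SCAMP3 in si-BAP1 cells (log2 -0.17, limma adjusted p = 0.00446).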

Other observations

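Exactly equal values recurred between arrays. In 57.8% of the 49293 non-control probe sets at least 2 arrays held the same value, in 27.3% at least 3 and in 3.21% at least 5. Among the 28 probe sets of the 9 secretion genes, 19 had at least 2 equal arrays, 9 at least 3 and 1 at least 5, a VAMP2 probe set that read 46.7 on 5 arrays. The brightest SV2A probe set read 21.4 on all 3 si-MBD5 arrays, so its SD there was 0. The brightest probe sets of SV2B, STXBP6, SNAP25 and SNAP23 had no equal values.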
